A study of Mus musculus with 12 samples.

Results

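Transcripts of 37 genes of DNA replication and mitosis were examined in mouse fibroblasts that received MyoD, Myf5 or myogenin. The genes were chosen by name: 16 act in DNA replication, its licensing or nucleotide supply, and 21 in the control or mechanics of mitosis. Each gene was read from the probe set with 1 gene symbol that had the highest mean over 12 arrays, and 34 of the 37 genes had one, out of 8251 genes with such a probe set in the whole series. After the filter on low signals 32 were tested, 13 of replication and 19 of mitosis, out of 6277 genes tested in all. Of the other 5, Mcm6 and Ccne2 did not pass the filter, with deposited signals of 1.49 to 12.2 and 0.871 to 14.9, Tyms was matched only by probe sets that also list Tyms-ps, and Ccnb1 and Bub1b are not listed in the probe table used here.

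The cells were 2C5/7 fibroblasts, an embryonic line with the genotype myoD-/-;myf5-/- in every group. They were infected with a retrovirus whose LTR drove MyoD, Myf5 or myogenin together with hrGFP, a green fluorescent protein, or hrGFP alone, and there were 3 arrays for each of these 4 groups. The cells grew as adherent cultures in DMEM with 10% fetal calf serum and were sorted without cloning to an estimated 75 to 85% fluorescent cells, so that each group also held cells without detected fluorescence, and how long after infection they were harvested is not stated in the sources used here. The labels do not say whether arrays of a group came from separate cultures, and p-values then measure only the spread between these arrays, which may be partly technical. MyoD 5 and hrGFP 5, the arrays labelled replicate 5 of those groups, stood apart before any gene was considered. Their ratios of 3' to 5' signal were 25.7 and 37.6 for the beta-actin control and 32.4 and 33.0 for the Gapdh control, against 0.968 to 1.11 and 0.786 to 1.03 on the other 10 arrays. Median signals of the arrays lay between 16.3 and 35.9 as deposited, and precision is limited by how many arrays there were. Of 14 fibroblast markers 13 passed the filter, and their summed signals were 6733 to 14547 on the MyoD, 7288 to 11801 on the Myf5, 11280 to 14036 on the myogenin and 5696 to 17601 on the hrGFP arrays. Of 14 tested skeletal muscle markers 12 rose with MyoD against hrGFP (adjusted p under 0.05 by limma), against 0.412% of probe sets called. With Myf5 1 rose, against 0.0118%, and with myogenin 1, against 0.13%. The marker list includes Myog, the gene of myogenin, so values on the myogenin arrays may include the introduced factor itself. Summed signals of the tested muscle markers were 3014 to 4182 on the MyoD arrays and 151 to 246 on the hrGFP arrays. On the Myf5 arrays they were 252 to 750 and on the myogenin arrays 592 to 1507. The filter asked for signals above 15.02 on at least 3 of 12 arrays, and each group has 3. Markers may thus have passed it only through the group where they are high, so their calls are a description and not a test. Of markers of other cell types, 4 of 8 for macrophages and leukocytes, 1 of 6 for endothelium and 2 of 5 for epithelium passed the filter.

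A cell that divides first loads the MCM helicase onto origins of replication with the help of Cdc6, then fires them under cyclin E and cyclin A kinases while E2F factors maintain the genes of S phase. Entry into mitosis depends on Cdk1 with B-type cyclins, and exit on the anaphase-promoting complex with Cdc20. In skeletal muscle, myoblasts leave the cell cycle as they differentiate, and MyoD, Myf5 and myogenin are the transcription factors that drive that programme. In a bulk sample, fewer cells with a transcript and less of it per cell cannot be told apart.

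The promoters of the genes that the results turn on are given here because the members share, by function, known classes of promoter. E2F factors are known to bind upstream of replication genes, and many mitosis genes are known to carry the cell cycle homology region (CHR) and CCAAT boxes bound by NF-Y. Promoters were taken from RefSeq on the GRCm38.p6 assembly. All but 7 of the 37 genes matched an entry (Mcm4, Ccne2, Ccna2, Aurkb, Cdc25c, Stmn1 and Foxm1 did not), which gave 15 windows for replication genes and 16 for mitosis genes. The 250 bases before the start were searched on both strands for the E2F forms TTTGGCGC, TTTGCCGC, TTTCGCGC and TTTCCCGC, for the CHR form TTTGAA and for CCAAT. The last 200 bases before the start are printed in the direction of transcription, with matches on either strand in capitals. Mcm3, Mcm5 and Cdc6 represent replication.
Mcm3 (chr1:20820313-20820512, minus strand): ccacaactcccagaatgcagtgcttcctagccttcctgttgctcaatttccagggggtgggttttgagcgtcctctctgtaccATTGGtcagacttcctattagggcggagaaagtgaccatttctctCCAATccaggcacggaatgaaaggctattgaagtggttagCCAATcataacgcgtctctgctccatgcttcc
Mcm5 (chr8:75109309-75109508, plus strand): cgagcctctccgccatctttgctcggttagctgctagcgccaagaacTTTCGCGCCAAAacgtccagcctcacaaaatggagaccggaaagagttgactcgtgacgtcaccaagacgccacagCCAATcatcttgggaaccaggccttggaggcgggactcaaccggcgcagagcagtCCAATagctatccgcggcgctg
Cdc6 (chr11:98907951-98908150, plus strand): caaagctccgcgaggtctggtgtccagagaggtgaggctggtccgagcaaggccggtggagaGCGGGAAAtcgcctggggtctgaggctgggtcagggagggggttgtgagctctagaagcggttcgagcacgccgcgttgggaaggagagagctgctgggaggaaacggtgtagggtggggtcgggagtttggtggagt
Birc5 and Tacc3 gave the largest differences below hrGFP, and Cdk1 and Top2a represent the mitosis genes with many matches.
Birc5 (chr11:117849037-117849236, plus strand): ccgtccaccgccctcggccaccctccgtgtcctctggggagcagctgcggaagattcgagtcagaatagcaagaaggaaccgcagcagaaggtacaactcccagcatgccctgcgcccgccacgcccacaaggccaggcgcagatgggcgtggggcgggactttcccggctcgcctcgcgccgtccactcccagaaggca
Tacc3 (chr5:33657928-33658127, plus strand): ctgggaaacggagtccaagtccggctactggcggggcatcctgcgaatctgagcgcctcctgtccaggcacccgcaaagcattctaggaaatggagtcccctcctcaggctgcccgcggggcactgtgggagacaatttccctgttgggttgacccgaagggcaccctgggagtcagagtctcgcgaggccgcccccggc
Cdk1 (chr10:69352913-69353112, minus strand): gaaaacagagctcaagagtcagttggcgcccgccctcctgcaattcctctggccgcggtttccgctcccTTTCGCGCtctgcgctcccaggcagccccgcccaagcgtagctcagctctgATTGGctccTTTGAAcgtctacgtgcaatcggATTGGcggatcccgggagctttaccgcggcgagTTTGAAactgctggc
Top2a (chr11:99024190-99024389, minus strand): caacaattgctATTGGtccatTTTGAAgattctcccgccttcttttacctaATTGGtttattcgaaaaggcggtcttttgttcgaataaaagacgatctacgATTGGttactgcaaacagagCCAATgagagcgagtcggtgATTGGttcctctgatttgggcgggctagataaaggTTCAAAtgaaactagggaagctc

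In the Mcm5 window 2 E2F forms overlapped on opposite strands, 153 to 146 and 149 to 142 bases before the start, and the Cdc6 form lay 138 to 131 bases before it. Cdk1 carried a form of each class, with CHR matches 71 to 66 and 15 to 10 bases before the start. The windows of Birc5 and Tacc3 held none of the letters searched, which says only that these strings are not in them. Over all members an E2F form stood in 4 of 15 replication windows (26.7%) and 1 of 16 mitosis windows (6.25%), against 1.86% of all 32851 windows. The CHR form stood in 1 replication window (6.67%) and 7 mitosis windows (43.8%), against 16% of all windows. CCAAT was found in 10 replication windows (66.7%) and 14 mitosis windows (87.5%), against 33.8% of all windows. A match is a description of the letters and not of a bound site.

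**Figure D1:**
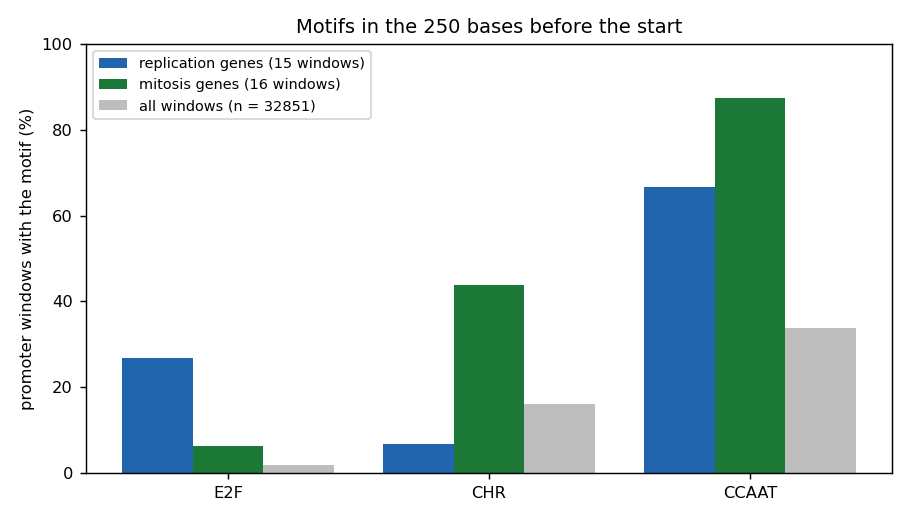
Share of promoter windows, in percent on the vertical axis, that held at least 1 match to each motif class in the 250 bases before the start. Bars are the windows of replication genes (blue, n = 15), of mitosis genes (green, n = 16) and all windows (grey, n = 32851), with no error since each is a count; E2F matches stood in 26.7% of replication windows and CHR matches in 43.8% of mitosis windows.

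Levels below are quantile-normalized log2(signal + 6.33), where 6.33 is a pseudocount that understates the change of low signals. A difference is one of group means on that scale, ± the standard error from limma with 3 arrays against 3, and p-values are adjusted by the Benjamini-Hochberg method over 8485 probe sets with a threshold of 0.05. All 32 tested members lay above the filter signal of 15.02 on all 12 arrays, with deposited signals of 19.5 to 1658, so none passed the filter through 1 group alone.

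The comparison of MyoD with hrGFP asks what MyoD changes in cells without their own MyoD or Myf5. On arrays where muscle transcripts rose, none of the 32 tested members, each read from its brightest probe set, differed by more than 0.42 on the log2 scale between MyoD and hrGFP. None of the 32 members passed the test by limma, against 0.412% of all probe sets, and 0 had an unadjusted p under 0.05, against 3.55%. No member's MyoD arrays lay wholly above or below its hrGFP arrays, against 5.28% of all probe sets. The median difference was 0.00 over the 13 replication genes and -0.06 over the 19 mitosis genes, beside -0.01 over all probe sets. Every adjusted p was 0.9998.

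Pcna, the sliding clamp of DNA polymerases, had 8.75, 8.67 and 9.56 on the MyoD arrays and 9.003, 8.69 and 9.66 on the hrGFP arrays. The groups overlapped, and the highest array of each was replicate 5. Its difference was -0.12 ± 0.29, with a 95% interval of -0.76 to 0.51. Among the helicase genes the largest differences were in Mcm7 (0.26 ± 0.45), Mcm4 (0.14 ± 0.20) and Mcm5 (-0.30 ± 0.49). Rrm1, the large subunit of ribonucleotide reductase, differed by 0.25 ± 0.26, and Rrm2, its small subunit, by 0.00 ± 0.29. E2f1, a transcription factor of S phase genes, differed by -0.17 ± 0.28, and Tk1, the cytosolic thymidine kinase, by -0.16 ± 0.59. The mitosis genes furthest from 0 were Hmgb2, a chromatin protein (-0.42 ± 0.33), Foxm1, a transcription factor of mitosis genes (0.34 ± 0.56, but -0.33 in its other probe set and -0.26 without MyoD 5 and hrGFP 5), and Top2a, which untangles chromosomes (0.23 ± 0.29). Cdca3, which takes part in the degradation of Wee1, differed by 0.22 ± 0.24, Birc5 by -0.20 ± 0.27 and Cenpa by -0.20 ± 0.23. Cdk1, the kinase of mitotic entry, had 9.88, 9.19 and 9.27 with MyoD and 10.05, 9.26 and 9.31 with hrGFP, which overlapped, and it differed by -0.09 ± 0.26. Mki67, the gene of the Ki-67 antigen of cycling cells, had 7.27, 7.41 and 7.69 with MyoD and 7.98, 6.45 and 7.68 with hrGFP. All 3 MyoD arrays lay within the range of the hrGFP arrays, and the difference was 0.08 ± 0.41.

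If the arrays are independent, the intervals of most members also bound the difference between these bulk means, as read from the brightest probe set. They do not bound the change within fluorescent cells, since each group also held cells without detected fluorescence. The 95% interval lay within a 2-fold difference either way for 10 of 13 replication genes and 16 of 19 mitosis genes. Without MyoD 5 and hrGFP 5 the same held for 30 of the 32 members, 0 passed, and the medians were -0.06 for replication and -0.11 for mitosis genes. Within array batch 1, the arrays of replicates 3 and 4, the medians were -0.06 and -0.11. Within batch 2, where each group has 1 array, MyoD 5 minus hrGFP 5 gave medians of 0.09 and 0.07 with no test.

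Same-numbered MyoD and hrGFP arrays deviated from their group means together, so the differences were also taken pair by pair. The correlation was strongest for replicate 5 (0.83), the arrays with high 3' to 5' ratios. Deviations within a group sum to 0, so a shift shared by those arrays also makes the other numbers deviate together. Pairing by culture and such a shift cannot be told apart. In 11 of 32 members all 3 pairs differed one way, against 28.3% of all probe sets, 4 of them higher with MyoD (Mcm3, Mcm4, Mcm7 and Cdca3, against 13.6%) and 7 lower (Mcm5, Pcna, Tk1, Birc5, Cdc25c, Cdk1 and Cenpa, against 14.7%). Mcm5 gave -0.31, -0.44 and -0.16 in pairs 3, 4 and 5, and Mcm7 gave 0.25, 0.22 and 0.31. Tk1 gave -0.22, -0.11 and -0.15, and Cdk1 gave -0.17, -0.07 and -0.04. In these members the pair values were closer together than the arrays within either group. Mcm5, Mcm7 and Tk1 are members with low values shared by MyoD 5 and hrGFP 5, which the subtraction removes. Other members went the other way. Mki67 gave -0.71, 0.96 and 0.01 and Top2a -0.23, 0.83 and 0.08, further apart than their MyoD arrays (7.27, 7.41 and 7.69, and 7.46, 7.51 and 7.63). In a limma fit of MyoD and hrGFP with the replicate number as a block, Mcm5 differed by -0.30 ± 0.14 (adjusted p = 0.751), Mcm7 by 0.26 ± 0.16 (adjusted p = 0.807) and Tk1 by -0.16 ± 0.14 (adjusted p = 0.882). That fit called 0 members, had 0 with an unadjusted p under 0.05, against 6.84% of probe sets, and placed the interval within a 2-fold difference for 31 of the 32. Over all genes it called 53 probe sets, against 35 without the block.

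**Figure D2:**
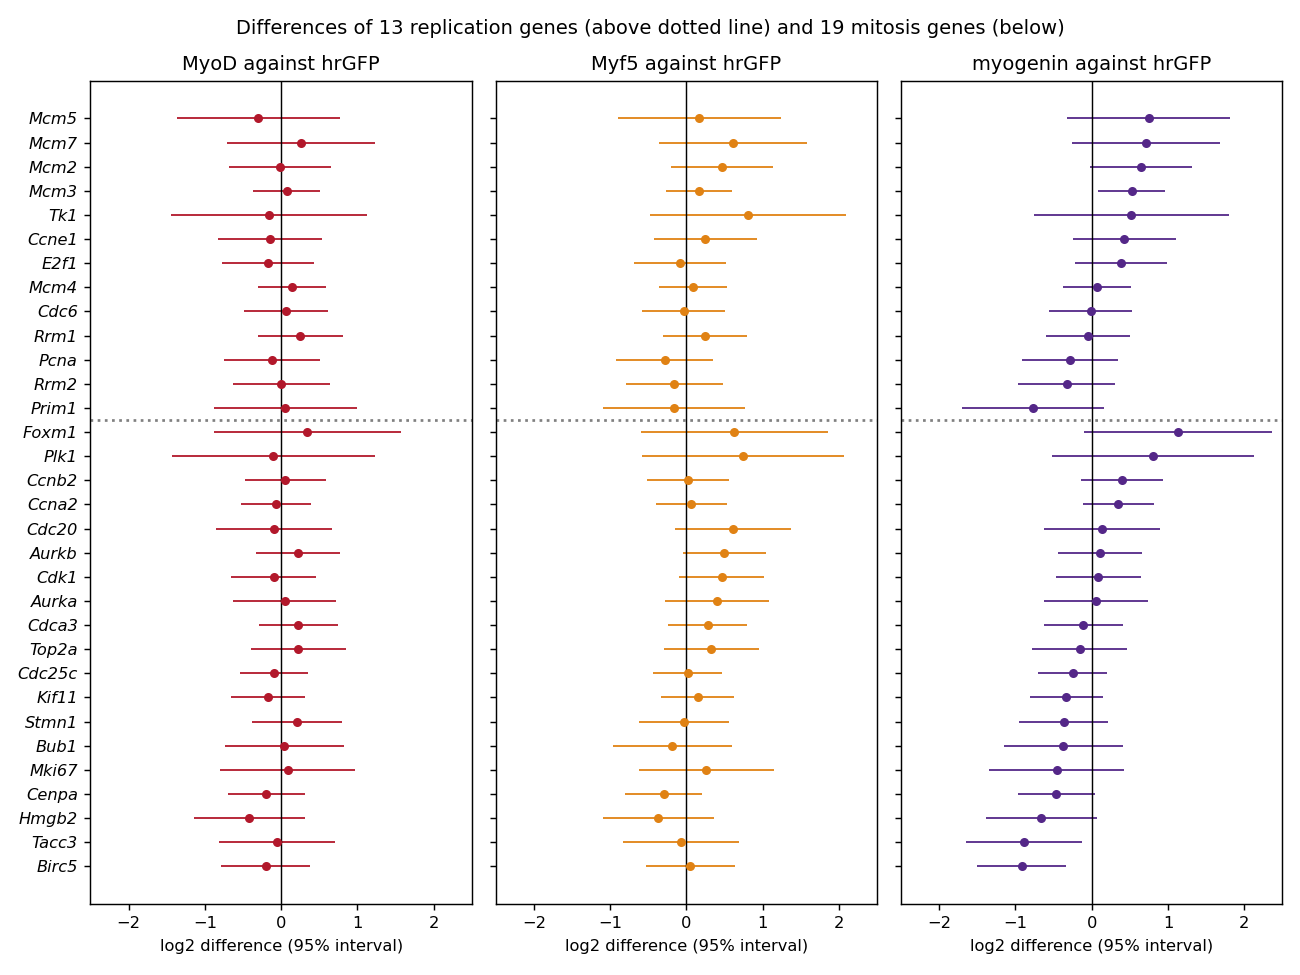
Log2 difference from hrGFP on the horizontal axis for each of 32 members down the page, with replication genes above the dotted line and mitosis genes below it, for MyoD (left, red), Myf5 (middle, orange) and myogenin (right, purple). Points are differences of means of 3 arrays and bars are 95% intervals from limma; with MyoD all bars cross 0, while the bars of Mcm3, Birc5 and Tacc3 do not with myogenin, although no gene passed after adjustment, and all 3 panels share the hrGFP arrays.

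With Myf5 the members lay slightly above hrGFP on average, and none passed. Against hrGFP, 0 of 32 members had an adjusted p under 0.05 by limma, against 0.0118% of probe sets, and 0 had an unadjusted p under 0.05, against 3.01%. The median difference was 0.16 for replication genes and 0.15 for mitosis genes, beside -0.03 over all probe sets. In 14 of 19 mitosis genes and 8 of 13 replication genes the difference was above 0. Without MyoD 5 and hrGFP 5 the medians were 0.09 for replication and 0.14 for mitosis genes, beside 0.02 over all probe sets. The comparison shares its hrGFP arrays with those of MyoD and myogenin, so the 3 are not independent.

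Tk1 had 9.23, 8.82 and 9.15 with Myf5 and 9.12, 8.80 and 6.87 with hrGFP. The groups overlapped, and the lowest value by a wide margin was hrGFP 5. Its difference was 0.81 ± 0.59, and 0.11 without MyoD 5 and hrGFP 5. Plk1, a kinase of spindle assembly and mitotic exit, had 8.02, 8.0 and 8.04 with Myf5 and 8.24, 7.91 and 5.69 with hrGFP. It too was lowest on hrGFP 5, and its difference of 0.74 ± 0.61 became -0.06 without those 2 arrays. Mcm7 (0.61 ± 0.45), Mcm2 (0.46 ± 0.31), Foxm1 (0.62 ± 0.56), Cdc20 (0.61 ± 0.35) and Aurkb (0.50 ± 0.25) also stood above 0, and without the 2 arrays they were 0.11, 0.18, -0.23, 0.26 and 0.46. Mcm5 differed by 0.17 ± 0.49, and by -0.42 without them. Without them 2 members (Mcm5 lower, Cdca3 higher) had an unadjusted p under 0.05, against 4.72% of probe sets. Below 0 stood Hmgb2 (-0.37 ± 0.33), Cenpa (-0.30 ± 0.23), Pcna (-0.29 ± 0.29), Bub1 (-0.18 ± 0.36), Prim1 (-0.16 ± 0.43) and Rrm2 (-0.16 ± 0.29). Without the 2 arrays Bub1 (0.15) and Prim1 (0.21) were above 0, and Hmgb2 was -0.11, Cenpa -0.23, Pcna -0.02 and Rrm2 -0.15. Cenpa, the histone variant of the centromere, had 6.91, 6.60 and 6.87 with Myf5 and 7.05, 7.02 and 7.22 with hrGFP. It was the only member whose 3 arrays did not overlap with hrGFP, against 8.66% of all probe sets (4.83% on the lower side), and its adjusted p was 0.973. The interval lay within a 2-fold difference for 8 of 13 replication genes and 11 of 19 mitosis genes, and without the 2 arrays for 29 of 32. Within batch 1 the medians were 0.02 for replication and 0.09 for mitosis genes, and Myf5 5 minus hrGFP 5, within batch 2, gave 0.26 and 0.28. Same-numbered Myf5 and hrGFP arrays deviated together only weakly, with correlations of 0.12, 0.33 and 0.11 for replicates 3, 4 and 5. All 3 pairs differed one way in 9 of 32 members, against 26.5% of probe sets, 7 higher with Myf5 (11.6%) and 2 lower (14.9%). Pair 5 holds the displacement of hrGFP 5, which Myf5 5 did not share. Tk1, among the 7, gave 0.11, 0.03 and 2.28 in pairs 3, 4 and 5. With the number as a block in a fit of both groups, 0 members were called by limma and 0 had an unadjusted p under 0.05, against 3.42% of probe sets, and over all genes 0 probe sets were called, against 1 without it.

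Myogenin gave the widest spread of the 3 factors, with the means of Mcm2, Mcm3, Mcm5 and Mcm7 above hrGFP and those of a few mitosis genes, Birc5 and Tacc3 foremost, below it, none of them past the test. All 3 myogenin arrays shared a chip lot and hybridization day that no other group had, so batch and factor cannot be told apart in any comparison with them. No member passed by limma, against 0.13% of probe sets. By unadjusted p under 0.05 there were 3 members, against 11.5% of all probe sets: Mcm3 above hrGFP (5.47% of probe sets), and Birc5 and Tacc3 below it (6.02%). Arrays did not overlap for 2 of 32 members above hrGFP (E2f1 and Mcm3, against 8.13% of probe sets) and 5 below it (Birc5, Cdc25c, Cenpa, Kif11 and Tacc3, against 9.92%), with 18.1% of all probe sets on either side. As a share of the 32 members, the count above hrGFP was lower and the count below it higher than that of all probe sets. The median difference was 0.39 for replication genes and -0.16 for mitosis genes, beside -0.01 over all probe sets. Without MyoD 5 and hrGFP 5 the medians were 0.15 and -0.11, and 2 members, Birc5 and Mcm3, had an unadjusted p under 0.05, against 12.7% of probe sets.

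Mcm3, a subunit of the replicative helicase, had 8.35, 8.56 and 8.65 with myogenin and 8.09, 8.18 and 7.72 with hrGFP. Every myogenin array lay above every hrGFP array. The difference was 0.53 ± 0.20 (adjusted p = 0.356), and 0.38 without the 2 arrays. The other Mcm3 probe set differed by 0.03 (adjusted p = 0.955), so the probe sets of this gene did not give the same value. Mcm5 had 9.56, 9.34 and 9.72 with myogenin and 9.30, 9.47 and 7.60 with hrGFP, where hrGFP 5 stood below all others and the remaining arrays overlapped. Its difference was 0.75 ± 0.49 (adjusted p = 0.559), and 0.15 without the 2 arrays. Mcm7 (0.71 ± 0.45) and Mcm2 (0.65 ± 0.31) likewise came to 0.21 and 0.36, while Mcm4 differed by 0.07 ± 0.20. Prim1, the catalytic subunit of primase, had 5.59, 5.61 and 5.35 with myogenin and 6.36, 5.46 and 7.04 with hrGFP. These overlapped through hrGFP 4, and the difference was -0.77 ± 0.43, or -0.38 without the 2 arrays. Rrm2 differed by -0.33 ± 0.29 and Pcna by -0.28 ± 0.29.

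Birc5, or survivin, a subunit of the chromosomal passenger complex, had 7.37, 7.04 and 7.02 with myogenin and 8.26, 7.67 and 8.25 with hrGFP. All myogenin arrays were below all hrGFP arrays. The difference was -0.92 ± 0.27, with a 95% interval of -1.50 to -0.33 and an adjusted p of 0.245, and it was -0.79 without the 2 arrays. Birc5 also lay lower with myogenin than with MyoD, where the arrays had 7.75, 7.66 and 8.16, and than with Myf5, with 8.31, 7.63 and 8.39, and the groups did not overlap in either case. Aurkb, the kinase of the same complex, differed from hrGFP by 0.11 ± 0.25. Tacc3, a spindle protein, had 5.89, 5.79 and 5.30 with myogenin and 6.69, 5.97 and 6.97 with hrGFP, with no overlap. Its difference was -0.88 ± 0.35 (adjusted p = 0.364), and -0.65 without the 2 arrays. Hmgb2 differed by -0.66 ± 0.33 and Kif11, a motor that separates spindle poles, by -0.34 ± 0.22.

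Foxm1 had 8.65, 8.13 and 8.65 with myogenin and 8.31, 8.10 and 5.64 with hrGFP, and the groups overlapped. Its difference of 1.13 ± 0.56 (adjusted p = 0.466) was the only one over 1 among the 32 members against hrGFP with any factor, and it was 0.27 without the 2 arrays. Plk1 differed by 0.80 ± 0.61, and by 0.01 without them. Ccnb2, a B-type cyclin, differed by 0.39 ± 0.25 and Ccna2, the cyclin of S phase and early mitosis, by 0.35 ± 0.21. Cdc6, which helps to load the helicase, had means of 6.50 ± 0.40 with MyoD, 6.40 ± 0.26 with Myf5, 6.42 ± 0.04 with myogenin and 6.44 ± 0.24 with hrGFP (SD, n = 3 each). Ccne1, cyclin E, differed by -0.15 (MyoD), 0.25 (Myf5) and 0.43 (myogenin) from hrGFP. For Aurka, a kinase of centrosome maturation, the 3 values were 0.05, 0.40 and 0.06. In 20 of the 32 members every difference from hrGFP, with all 3 factors, was within 0.5.

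**Figure D3:**
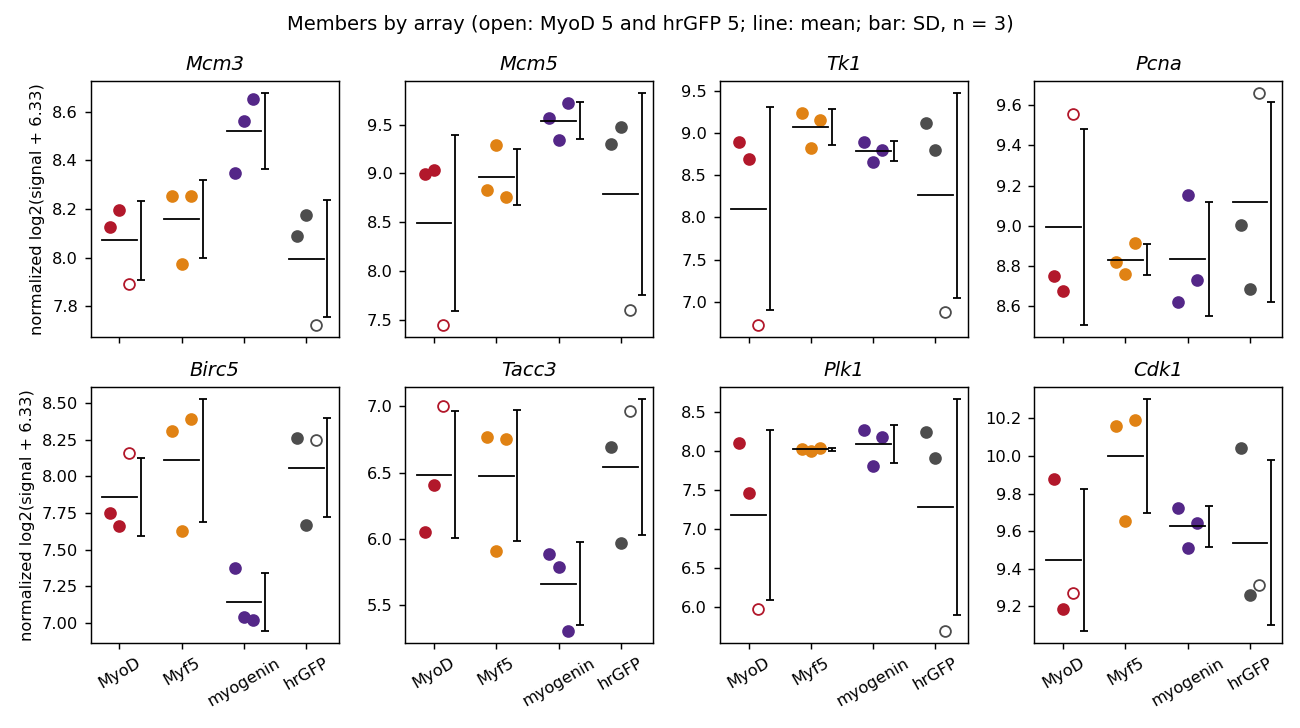
Normalized log2(signal + 6.33) on the vertical axis for 8 members on each array of the MyoD (red), Myf5 (orange), myogenin (purple) and hrGFP (grey) groups. Points are arrays, lines are means and bars are SDs (n = 3); open points are MyoD 5 and hrGFP 5, which lie low together for Mcm5, Tk1 and Plk1 and high together for Pcna, while the myogenin arrays of Birc5 and Tacc3 lie below all hrGFP arrays.

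The factors were also set against each other. MyoD against Myf5 gave 0 called members of 32 by limma, against 0.224% of probe sets, 0 with an unadjusted p under 0.05, against 3.71%, and 0 without overlap, against 9.76%. The medians were -0.09 for replication and -0.14 for mitosis genes, beside 0.02 over all probe sets. Tk1 differed by -0.97 ± 0.59, with 8.89, 8.69 and 6.72 on the MyoD arrays and the Myf5 values given above, and only MyoD 5 was far below the rest. Plk1 (-0.84 ± 0.61), Cdc20, the activator of the anaphase-promoting complex (-0.70 ± 0.35), and Cdk1 (-0.56 ± 0.26) followed, with adjusted p of 0.937 each. Without MyoD 5 and hrGFP 5, Tk1 differed by -0.27, Plk1 by -0.23, Cdc20 by -0.49 and Cdk1 by -0.47. Cdk1 had 10.16, 9.65 and 10.19 with Myf5, above the MyoD values except that Myf5 4 lay below MyoD 3. Mcm2 (-0.48 ± 0.31) and Mcm5 (-0.47 ± 0.49) also had means below those with Myf5 and did not pass, and Stmn1, which destabilizes microtubules, differed by 0.24 ± 0.27. Above 0 also stood Bub1 (0.23 ± 0.36), Prim1 (0.22 ± 0.43), Pcna (0.16 ± 0.29), Rrm2 (0.16 ± 0.29) and Cenpa (0.10 ± 0.23). Without the 2 arrays Bub1 was -0.08, Prim1 -0.17, Pcna -0.12 and Cenpa -0.03, while Rrm2 was 0.03 and Stmn1 0.01. Mcm2 was then -0.21 and Mcm5 0.05. Within batch 1 the medians were -0.07 and -0.10, and MyoD 5 minus Myf5 5 gave -0.10 and -0.23.

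Against myogenin, MyoD gave 0 called members by limma, against 0.412% of probe sets, and 4 with an unadjusted p under 0.05, against 13.8% of probe sets. Birc5 and Tacc3 were higher with MyoD (7.55% of probe sets), and Mcm2 and Mcm3 lower (6.26%). The other Mcm3 probe set differed by only -0.05. Arrays did not overlap for 8 members higher with MyoD (11.8% of probe sets) and 4 lower (10.6%), against 22.4% on either side. The medians were -0.45 for replication and 0.16 for mitosis genes, beside 0.00 over all probe sets, and -0.12 and 0.11 without MyoD 5 and hrGFP 5. Mcm5 was furthest below 0 at -1.05 ± 0.49 (adjusted p = 0.364), with 8.99, 9.03 and 7.45 on the MyoD arrays. MyoD 5 was lowest, and MyoD 3 and MyoD 4 also lay below every myogenin array. The dimmer Mcm5 probe set differed by 0.13. Tacc3 differed by 0.82 ± 0.35, Prim1 by 0.82 ± 0.43, Birc5 by 0.71 ± 0.27 and Stmn1 by 0.58 ± 0.27, while Plk1 differed by -0.90 ± 0.61, Foxm1 by -0.79 ± 0.56 and Ccna2 by -0.42 ± 0.21. Among replication genes Rrm2 (0.33 ± 0.29) and Rrm1 (0.30 ± 0.26) had means above those with myogenin, and Tk1 (-0.68 ± 0.59) and Mcm2 (-0.67 ± 0.31) below. Without the 2 arrays the values were -0.53 for Mcm5, 0.42 for Prim1, 0.01 for Tk1, -0.39 for Mcm2 and -0.29 for Plk1, and Mcm5 alone had an unadjusted p under 0.05, against 15.6% of probe sets.

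Myf5 against myogenin gave 0 called members by limma, against 0.0354% of probe sets, and 3 with an unadjusted p under 0.05, all higher with Myf5 (Birc5, Tacc3 and Kif11), against 9.18% of probe sets (3.95% higher and 5.23% lower). Arrays did not overlap for 6 members higher with Myf5 (13.9% of probe sets) and 3 lower (12.4%), against 26.4% on either side. The medians were -0.02 for replication and 0.34 for mitosis genes, beside 0.01 over all probe sets. Birc5 differed by 0.97 ± 0.27 (adjusted p = 0.318), and without MyoD 5 and hrGFP 5, which enter this comparison only through the shared spread and normalization, by 0.94 (adjusted p = 0.0768). Without those arrays 7 members had an unadjusted p under 0.05, against 18.2% of probe sets, with Cdca3 joining those higher with Myf5 and Mcm5 (-0.58), Foxm1 (-0.49) and Mcm3 (-0.35) lower with it, and 0 passed. Tacc3 differed by 0.82 ± 0.35, Mki67 by 0.72 ± 0.41, Prim1 by 0.61 ± 0.43, Rrm1 by 0.30 ± 0.26 and Tk1 by 0.29 ± 0.59. Below 0 stood Mcm5 (-0.58 ± 0.49), Foxm1 (-0.51 ± 0.56), E2f1 (-0.47 ± 0.28), Ccnb2 (-0.37 ± 0.25), Mcm3 (-0.36 ± 0.20) and Ccna2 (-0.28 ± 0.21). The other probe sets gave 0.38 for Mcm5, 0.07 for Foxm1, -0.24 for E2f1 and 0.05 for Mcm3.

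On MyoD 5 and hrGFP 5 members lay away from the other arrays of their group, in opposite directions for different genes. Set against the mean of replicates 3 and 4, Tk1 gave -2.07 on MyoD 5, 0.13 on Myf5 5 and -2.08 on hrGFP 5. Plk1 gave -1.81 on MyoD 5, 0.03 on Myf5 5 and -2.38 on hrGFP 5. Mcm5 gave -1.57, -0.30 and -1.79 in that order of arrays, and Mcm7 gave -1.42, 0.18 and -1.49. Prim1 stood above, at 1.18, 0.72 and 1.13, as did Bub1, a kinase of the spindle checkpoint, at 0.94, 0.16 and 1.02, and Pcna, at 0.84, 0.12 and 0.82. Other members differed more between the other arrays of a group: Mki67 differed by 1.53 between hrGFP 3 and hrGFP 4, against a displacement of 0.46 on hrGFP 5.

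Members past a log2 difference of 1 numbered 5 of 32 (15.6%) on MyoD 5, 0 on Myf5 5 and 8 of 32 (25%) on hrGFP 5, against 21.9%, 2.23% and 25.6% of all probe sets. Of the 13 replication genes 30.8% (1 higher and 3 lower) were past it on MyoD 5 and 30.8% (1 higher and 3 lower) on hrGFP 5. Of the 19 mitosis genes 5.26% (0 higher and 1 lower) and 21.1% (1 higher and 3 lower) were. These shares rest on few genes, and their difference from the shares of all probe sets was not tested. In 5 members the displacement was shared by MyoD 5 and hrGFP 5, 4 of them lower and 1 higher. Genes of 1 complex were displaced unlike each other: Mcm5 and Mcm7 were low while Mcm4 was 0.42 higher on MyoD 5 and 0.43 higher on hrGFP 5. These are the arrays with high 3' to 5' ratios, and the part of those ratios in the values was not tested.

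**Figure D4:**
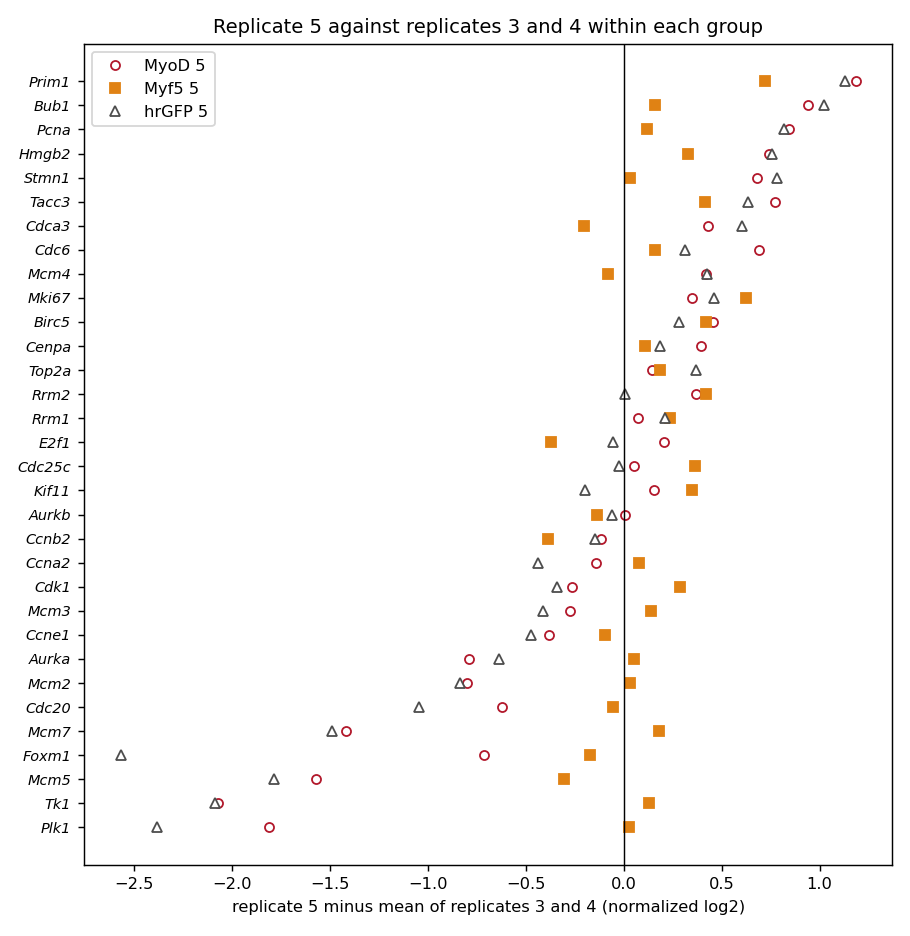
Normalized log2 level on replicate 5 minus the mean of replicates 3 and 4 of the same group on the horizontal axis, for 32 members down the page. Red circles are MyoD 5, orange squares Myf5 5 and grey triangles hrGFP 5, 1 array each with no error bar; MyoD 5 and hrGFP 5 lie close together in most rows, as low as -2.07 and -2.08 for Tk1, where Myf5 5 stays near 0.

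Of the 34 genes with a probe set, 11 had more than 1, and these did not always give the same value. Both of the brighter Plk1 probe sets and both Foxm1 probe sets had positive differences for myogenin against hrGFP, at 0.80 and 1.35 for Plk1 and 1.13 and 0.99 for Foxm1, but the dimmest Plk1 probe set gave -0.15. In each positive case hrGFP 5 lay far below hrGFP 3 and hrGFP 4. It had 3.78 against 7.31 and 6.91 in the second Plk1 probe set, and 3.68 against 7.04 and 6.75 in the dimmer Foxm1 one. Without MyoD 5 and hrGFP 5 the brightest probe sets gave 0.01 for Plk1 and 0.27 for Foxm1. Cdc25c, the phosphatase that activates Cdk1, differed by -0.25 in its brighter and -0.89 in its dimmer probe set (adjusted p = 0.625 and 0.353). For E2f1 the values were 0.39 and 0.37. The dimmer probe set of Mcm5 gave -0.25 for myogenin against hrGFP, and that of Tk1 gave -0.78 for Myf5 against hrGFP, where the brighter gave 0.81. The probe sets used for E2f1, Mcm3, Cdca3, Hmgb2, Cdc25c, Foxm1 and Plk1 carry a suffix by which the maker marks probes that may match other transcripts or were chosen under relaxed rules, so these values are less certain.

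Other genes of the same processes did not pass either. Of 53 other replication genes listed 43 were tested, of 53 other mitosis genes 40, and of 25 regulators of the G1 phase and pocket proteins 17, and 0 of these passed in any of the 6 comparisons by limma. Against hrGFP an unadjusted p under 0.05 was found for 0 other replication genes with MyoD, 2 with Myf5 and 1 with myogenin, for 0, 0 and 2 other mitosis genes, and for 2, 0 and 2 G1 genes, against 3.55%, 3.01% and 11.5% of all probe sets. The largest differences between MyoD and hrGFP in the other replication and mitosis lists were in Rpa2, a subunit of the single-strand binding protein (-0.70 ± 0.37), and Ube2c, a ubiquitin-conjugating enzyme of the anaphase-promoting complex (-0.57 ± 0.29), with adjusted p of 0.9998 each. Rnaseh2a, a subunit of the RNase that removes RNA primers, differed by 0.75 ± 0.24 with Myf5 against hrGFP (adjusted p = 0.973). Uhrf1, which maintains DNA methylation behind the fork, differed by 0.87 ± 0.34 with myogenin against hrGFP (adjusted p = 0.362), and Cks2, a small subunit of Cdk complexes, by -0.76 ± 0.24 (adjusted p = 0.264). Over the 40 other mitosis genes the differences from hrGFP ran from -0.76 to 1.41 with myogenin (19 above 0, 21 below) and from -0.52 to 1.16 with Myf5. Ccnd2, a D-type cyclin that drives entry into S phase, differed by 1.17 ± 0.31 with myogenin against hrGFP (adjusted p = 0.197). The G1 genes ran from -0.71 to 1.29 in that comparison. For these 3 lists values without MyoD 5 and hrGFP 5 are not given. Rb1, the retinoblastoma protein that holds E2F factors in check, averaged 5.30 ± 0.84 with MyoD and 3.62 ± 0.35 with Myf5 (SD, n = 3 each), a difference of 1.68 ± 0.43 (adjusted p = 0.394). Against hrGFP, with 3.87 ± 0.58 (SD, n = 3), Rb1 differed by 1.43 ± 0.43 (adjusted p = 0.561). The Myf5 and hrGFP means of Rb1 lay below 4.42, the filter signal on the log2 scale before normalization. Rb1 may thus have passed the filter only through arrays where it is high, so its differences and p-values are a description and not a test. Cdkn1a, an inhibitor of cyclin-dependent kinases, averaged 7.96 ± 0.33 with MyoD and 7.17 ± 0.21 with Myf5 (SD, n = 3 each), a difference of 0.80 ± 0.32 (adjusted p = 0.937). Against hrGFP, with 6.88 ± 0.14 (SD, n = 3), Cdkn1a differed by 1.09 ± 0.32 (adjusted p = 0.517). In both genes, of 17 G1 genes tested, every MyoD array lay above every hrGFP array, against 5.28% of all probe sets without overlap on either side. Rb1 and Cdkn1a are the 2 G1 genes counted above with MyoD. For Rb1 that count and the lack of overlap are likewise only a description.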

How the data were processed

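RNA was measured on 12 single-colour MG_U74Av2 arrays, 3 per group, and groups and replicate numbers were taken from the sample titles. The deposited intensity signals, 1 per probe set, come from MAS5, per the submitters' processing notes, with its version and scaling not given in the sources used here. Deposited trimmed means differed by up to 2.50-fold between arrays. Out of 12488 probe sets, 66 controls were left out, and of the rest 10833 had 1 symbol, 396 several and 1193 none listed in the probe table.

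A pseudocount of 6.33, the 25th percentile of signals, went into the log2 values, which were then quantile normalized. Probe sets above 15.02, the 40th percentile, on at least 3 of 12 arrays were kept, which left 8485. One limma 3.58.1 model (R 4.3.3, statmod 1.5.0) with a mean per group and 8 residual degrees of freedom was fitted, with a trend in the variance. It was tested on simulated arrays with less spread than these and with changes larger than any member's. That test says nothing on how well changes of the members' size are found. Adjustment was over all probe sets of each of 6 comparisons. Alternatives changed normalization, pseudocount, filter, probe set rule, fit and arrays.

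Members and lists were chosen with earlier results of these data known. Named were every called member and, per comparison and list, up to 3 members with the largest difference in each direction, and up to 4 genes of each other list. Other values given for a member or gene were chosen after they were seen. Same-numbered arrays correlated in their deviations from group means at 0.39 to 0.83 for MyoD with hrGFP and 0.11 to 0.33 for Myf5 with hrGFP, so the numbers of the titles were taken to pair these arrays, but not for MyoD with Myf5 (-0.01 to 0.11). The lowest value of Myf5 with hrGFP hardly differed from the highest of MyoD with Myf5, so the pairing of Myf5 with hrGFP is weakly founded. The main model has no block, and blocked values are given beside it. Array batches were taken from chip lot and day of hybridization in the deposited experiment files. Image and probe-level files were left out. Promoters came from a RefSeq table on GRCm38.p6, and the array values use no coordinates.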

Additional observations from a re-analysis of the deposited data

How the results depend on the processing

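The count of called members was 0 in each of the 6 comparisons under every alternative run, 25 for MyoD and Myf5 against hrGFP, 24 for MyoD against Myf5 and 21 for the 3 with myogenin. The lowest adjusted p of a member was 0.0630, in Myf5 against myogenin, and 0.596, 0.678, 0.169, 0.625 and 0.172 in MyoD, Myf5 and myogenin against hrGFP, MyoD against Myf5 and MyoD against myogenin. The list medians changed in 2 cases by more than the spread between arrays, both in MyoD against myogenin: the mitosis median was 0.00197 with no normalization between arrays, and the replication median was 0.0638 with no filter, where Mcm6 and Ccne2 also enter. The cause of the first was not tested. Leaving out 1 array at a time gave medians of -0.06 to 0.12 for replication and -0.11 to 0.13 for mitosis genes in MyoD against hrGFP, 0.00 to 0.17 and 0.05 to 0.30 in Myf5 against hrGFP, and 0.15 to 0.48 and -0.29 to -0.11 in myogenin against hrGFP. The ranges were -0.18 to 0.06 and -0.28 to -0.05 in MyoD against Myf5, -0.48 to -0.12 and 0.11 to 0.25 in MyoD against myogenin, and -0.11 to 0.03 and 0.30 to 0.43 in Myf5 against myogenin.

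Counts of probe sets called over all genes moved more: 12 to 53 in MyoD, 0 to 4 in Myf5 and 0 to 50 in myogenin against hrGFP, 3 to 28 in MyoD against Myf5, 3 to 58 in MyoD against myogenin and 0 to 136 in Myf5 against myogenin. With no normalization the median of all probe sets in myogenin against hrGFP was 0.17. With the replicate number as a block over MyoD, Myf5 and hrGFP together 0 members were called, and 36 probe sets in MyoD against hrGFP, 4 in Myf5 against hrGFP and 17 in MyoD against Myf5, where 19 were called without it. The replicate block in fits of MyoD or Myf5 with hrGFP alone, chosen after seeing the data, called 53 and 0 probe sets and 0 members, so the block changed no member's call. No paired analysis was possible for myogenin because its arrays share only 1 number with the other groups.

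Precision is limited by 3 arrays per group: the median 95% interval of a member reached 0.63 either side for replication and 0.59 for mitosis genes.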
